A study of Oryza sativa with 7 samples.

Results

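The AUX1/LAX auxin influx carriers of rice were followed across 3 tissues of the stem base. The family was taken as 5 loci chosen by identifier: LOC_Os01g63770, which is OsAUX1, and the relatives LOC_Os03g14080, LOC_Os05g37470, LOC_Os10g05690 and LOC_Os11g06820. By their identifiers they lie on chromosomes 1, 3, 5, 10 and 11. They were 5 of the 24775 gene identifiers in the series, and each had reads in at least 4 of the 7 libraries. All libraries came from wild-type seedlings of the indica cultivar IR64, 6 days old and germinated on MS medium, and all tissue was collected by laser capture microdissection, which uses a laser to cut selected cells out of a tissue section. The groups were crown root primordia at initiation (3 libraries), crown root primordia at outgrowth (2 libraries) and ground tissue, the control (2 libraries). The labels do not say how many plants went into a library, whether libraries shared plants, or which cells made up the ground tissue.

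Auxin enters plant cells in part by diffusion and in part through AUX1/LAX proteins, plasma membrane carriers related to amino acid permeases that take up the hormone together with protons. PIN proteins carry auxin out of the cell, and the balance of uptake and export sets where auxin accumulates in a tissue. In Arabidopsis, AUX1 acts in gravitropism and in the positioning of lateral roots, and LAX3 acts in the tissue that overlies a lateral root primordium as it emerges. In rice, OsAUX1 is known for roles in lateral root formation and in root hair growth. Crown roots, the shoot-borne roots that form most of the rice root system, arise from primordia inside the stem base.

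The library totals ran from 8351775 counts in control replicate 1 to 25448025 in control replicate 2. The libraries of initiation replicates 1 and 3 were closer than sampling noise allows: they differed by less than it (0.402 times the counting noise, against 9.53 to 52.5 times for the other replicate pairs within a group). They were counted as 1 sample, so every group had n = 2. The outgrowth files differed in layout from the files of the other groups, so a separate processing batch cannot be told apart from the outgrowth stage. The tissue labels were set beside lists of loci placed in families from knowledge of rice nomenclature, which no source used here pairs with these identifiers. Of 9 root stem cell and primordium regulators, 6 were called higher at initiation than in control and 2 lower, against 14.4% and 16.1% of all tested genes. At outgrowth 5 were called higher than control and 2 lower, against 12.8% and 13.6% of all tested genes. The pair called lower was LOC_Os07g03250, at 150.4 and 156.4 CPM (reads of a gene per 1000000 reads in its file) in control and 0.808 to 6.99 CPM at initiation, and LOC_Os07g48560, at 11.97 and 24.2 CPM in control and 0.0950 to 1.60 CPM at initiation. The summed level of the 9 was 256 and 303 CPM in control, 1316 to 1437 CPM at initiation and 779 and 899 CPM at outgrowth. LOC_Os02g40070, LOC_Os01g67410 and LOC_Os11g19060, called higher, reached the abundance filter (1 CPM in 2 or more samples) only with the primordium libraries. The pair called lower reached it only with the control libraries. The list was also chosen with earlier results of these data known, so its counts support nothing by themselves.

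Every AUX1/LAX locus was read in ground tissue, and none was called higher in primordia than in ground tissue by edgeR, where 14.4% of all tested genes were called higher at initiation and 12.8% at outgrowth. At an unadjusted p below 0.05, and by DESeq2, 1 locus was higher at initiation, LOC_Os10g05690, and 0 at outgrowth. Of 18830 tested genes, 8038 had an unadjusted p below 0.05 at initiation in either direction, and DESeq2 called 7025. At outgrowth against control these numbers were 7367 and 6205. The AUX1/LAX loci fell into 3 patterns. OsAUX1 was low at both primordium stages, LOC_Os05g37470 and LOC_Os11g06820 were close to or at 0 reads in primordia, and LOC_Os03g14080 and LOC_Os10g05690 were 1.53-fold lower and 1.52-fold higher than control at initiation, neither passing the test, and were low at outgrowth. The reads of the 5 loci together came to 509 and 602 CPM in the control libraries, 285, 373 and 286 CPM in initiation replicates 1, 2 and 3, and 85.0 and 82.8 CPM in the outgrowth libraries. This sum fell in order from control to initiation to outgrowth. The share of all genes whose groups lie apart in this way was not counted, here or for the single loci below. In samples of bulk tissue, fewer cells of a type and less RNA per cell cannot be told apart. Levels are CPM of the file total and are not scaled for gene length, so they are compared between libraries and not between loci.

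**Figure D1:**
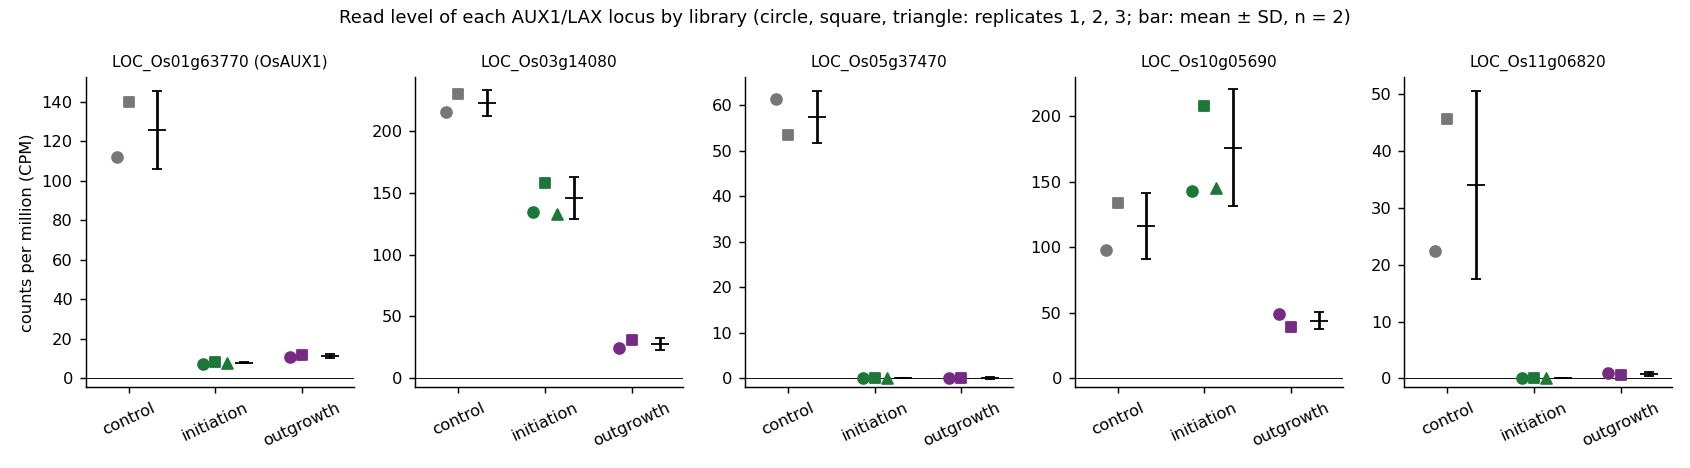
Level in CPM of each AUX1/LAX locus (vertical axis, a linear scale from 0 that differs between panels) in every library of control, initiation and outgrowth; markers stand for replicates and the bars for the mean ± SD with n = 2, initiation replicates 1 and 3 pooled. OsAUX1, LOC_Os05g37470 and LOC_Os11g06820 are high in control alone, while LOC_Os03g14080 and LOC_Os10g05690 are high in control and at initiation and reach at most 31.1 and 48.7 CPM at outgrowth.

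OsAUX1 (LOC_Os01g63770) had 111.8 and 139.7 CPM in control replicates 1 and 2. It had 7.27, 8.26 and 7.89 CPM in initiation replicates 1, 2 and 3, and 10.7 and 11.9 CPM in outgrowth replicates 1 and 2. Both control libraries lay far above all 5 primordium libraries, and the outgrowth libraries lay slightly above the initiation libraries. The control level of 125.8 ± 19.7 CPM (SD, n = 2) was 15.8-fold that at initiation, 7.97 ± 0.415 CPM (SD, n = 2). The fitted log2 fold change at initiation was -3.89 with a standard error of 0.27 (edgeR quasi-likelihood test, adjusted p = 0.000192). At outgrowth the level was 11.3 ± 0.850 CPM (SD, n = 2), with a log2 fold change against control of -3.43 and a standard error of 0.26 (adjusted p = 0.000211 by edgeR). Among 18830 genes tested, 5.52% had a lower fitted value at initiation and 5.30% at outgrowth. Between the stages the fitted difference was 0.46 higher at outgrowth on the log2 scale, with a 95% interval of -0.12 to 1.04, and it did not pass the test (adjusted p = 0.412 by edgeR). The order of levels was thus control above both stages, with the neighbouring stages not separated by the test.

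The pair with almost no reads in primordia came next. LOC_Os05g37470 had 513 reads in control replicate 1 and 1361 in control replicate 2, or 61.4 and 53.5 CPM. It had 0, 0 and 1 read in initiation replicates 1, 2 and 3, and 2 and 0 reads in outgrowth replicates 1 and 2. The primordium libraries together thus held 3 reads of this locus, against 1874 in control. Over the pooled reads of control and of initiation replicates 2 and 3, left without replicate 1 as its near copy, the ratio of control to initiation was 1999 and the exact 95% counting interval ran from 358 to 79000. The edgeR fit gave an adjusted p of 0.000424, but averaging and rounding replicates 1 and 3 left it with 0 initiation reads. The ratio of control to outgrowth was 661, with an interval of 183 to 5465 (edgeR adjusted p = 0.000458). Counting intervals here cover counting error only, not the spread between libraries. The locus passed the abundance filter through the control libraries alone, so its edgeR p-values against control are no support by themselves. No fold is given between the stages, where both groups held at most 2 reads.

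LOC_Os11g06820 had 187 and 1163 reads in control replicates 1 and 2, or 22.4 and 45.7 CPM. It had no read in any of the 3 initiation libraries, and 12 and 6 reads in outgrowth replicates 1 and 2, or 0.959 and 0.529 CPM. Its control libraries differed by 1.03 on the log2 scale, above the median of 0.427 between these libraries over 12152 genes with a mean of at least 10 CPM, yet even the lower control library lay far above the primordia. The mean of the control libraries was at least 409-fold higher than initiation, against a floor of 3 counts over initiation replicates 2 and 3, which is 0.0832 CPM (edgeR adjusted p = 0.000798). Control replicate 1 alone was at least 269-fold higher and control replicate 2 alone at least 549-fold higher. Against outgrowth, control was 45.8-fold higher by group means (adjusted p = 0.00220 by edgeR). Over the pooled reads of each group, which weigh the deeper control replicate 2 more, it was 52.9-fold higher, with a 95% counting interval of 33.4 to 89.6. Between the stages the locus went from 0 reads to 18 reads over both outgrowth libraries, and the difference did not pass the test (adjusted p = 0.0563 by edgeR). It did pass in 4 of 17 alternative analyses that tested it. Since LOC_Os05g37470 and LOC_Os11g06820 reached the abundance filter through the control libraries alone, their place among genes lower than control was set in part by the filter.

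LOC_Os03g14080 had 214.9 and 229.7 CPM in control. It had 134.7, 157.5 and 133.1 CPM in initiation replicates 1, 2 and 3, and 24.5 and 31.1 CPM in outgrowth replicates 1 and 2. The widest gap lay between initiation and outgrowth. The mean at initiation was 145.6 ± 16.9 CPM (SD, n = 2) against 222 ± 10.5 CPM in control (SD, n = 2), a log2 fold change of -0.52 with a 95% interval of -0.98 to -0.05 that did not pass the test over all genes (edgeR adjusted p = 0.0879). It passed when scaled by library totals alone and when initiation replicates 1 and 3 were entered as separate samples. At outgrowth the level was 27.8 ± 4.73 CPM (SD, n = 2), 8.00-fold below control, with a log2 fold change of -2.96 and a standard error of 0.22 (adjusted p = 0.000188 by edgeR). Between the stages it fell by 2.44 on the log2 scale with a standard error of 0.21 (adjusted p = 0.00571 by edgeR), and 1.97% of the tested genes had a lower value.

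LOC_Os10g05690 had 98.1 and 133.9 CPM in control. It had 143.0, 207 and 145.0 CPM in initiation replicates 1, 2 and 3, and 48.7 and 39.3 CPM in outgrowth replicates 1 and 2. All initiation libraries lay above both control libraries and all outgrowth libraries below them, which set it apart from the other members in its order of levels. The mean of 175.9 ± 44.6 CPM at initiation (SD, n = 2) was 1.52-fold the control mean of 116.0 ± 25.3 CPM (SD, n = 2). The log2 fold change was 0.69 with a 95% interval of 0.09 to 1.29, and it did not pass the test over all genes (edgeR adjusted p = 0.0808), though it passed with DESeq2, without the abundance filter and without control replicate 2. At outgrowth it had 44.0 ± 6.71 CPM (SD, n = 2), with a log2 fold change against control of -1.36 and a standard error of 0.27 (adjusted p = 0.00901 by edgeR). Without outgrowth replicate 2 this call was lost (edgeR adjusted p = 0.0963, log2 fold change -1.21). From initiation to outgrowth it fell by 2.05 on the log2 scale with a standard error of 0.27 (adjusted p = 0.0135 by edgeR), and 2.77% of tested genes had a lower value.

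For LOC_Os03g14080 and LOC_Os10g05690 the call between the stages was lost without initiation replicate 2 or either outgrowth library. Each of these fits left a stage with 1 sample, which is assumed to vary like the other groups, and edgeR then called 15, 0 and 0 genes of all those tested (2182, 1446 and 1694 at an unadjusted p below 0.05). Without initiation replicate 2 the edgeR adjusted p was 0.0578 and 0.114 for the pair, with log2 fold changes of -2.29 and -1.74. Without outgrowth replicate 1 it was 0.0983 and 0.131, with log2 fold changes of -2.26 and -2.20, and without outgrowth replicate 2 it was 0.0982 and 0.145, with log2 fold changes of -2.62 and -1.90. The loss of a call in such fits was common to nearly all genes.

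**Figure D2:**
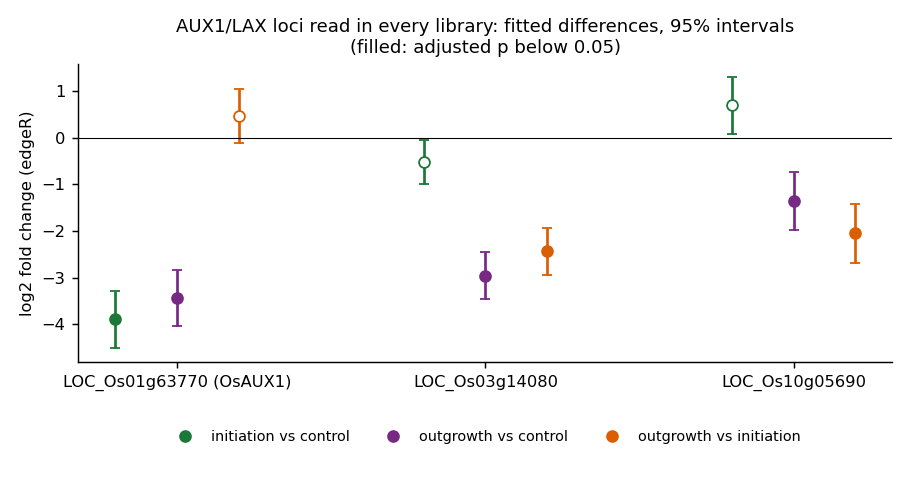
Fitted log2 fold changes (edgeR, vertical axis) of the 3 AUX1/LAX loci with reads in every library, for each comparison of initiation, outgrowth and control; bars are 95% intervals and filled points have an adjusted p below 0.05. OsAUX1 differs from control at both stages, while LOC_Os03g14080 and LOC_Os10g05690 have filled points at outgrowth against control and between the stages.

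Counted over the family, 3 of 5 loci were called lower at initiation than in control, where 16.1% of all tested genes were called lower. At outgrowth 5 of 5 were called lower than control, where 13.6% of tested genes were called lower. The pair that passed the filter through control alone is in both counts, so these counts support nothing by themselves. Of the 3 loci with reads in every library, 1 was called lower at initiation and 3 at outgrowth. Between the stages 2 of 5 were called lower and 0 higher by edgeR, where 1.83% of all tested genes were called lower and 1.25% higher. By DESeq2, and at an unadjusted p below 0.05, 1 was higher at outgrowth, LOC_Os11g06820. In either direction, DESeq2 called 1811 of 18830 tested genes between the stages, and 3270 had an unadjusted p below 0.05. Both comparisons with control share the control libraries.

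**Figure D3:**
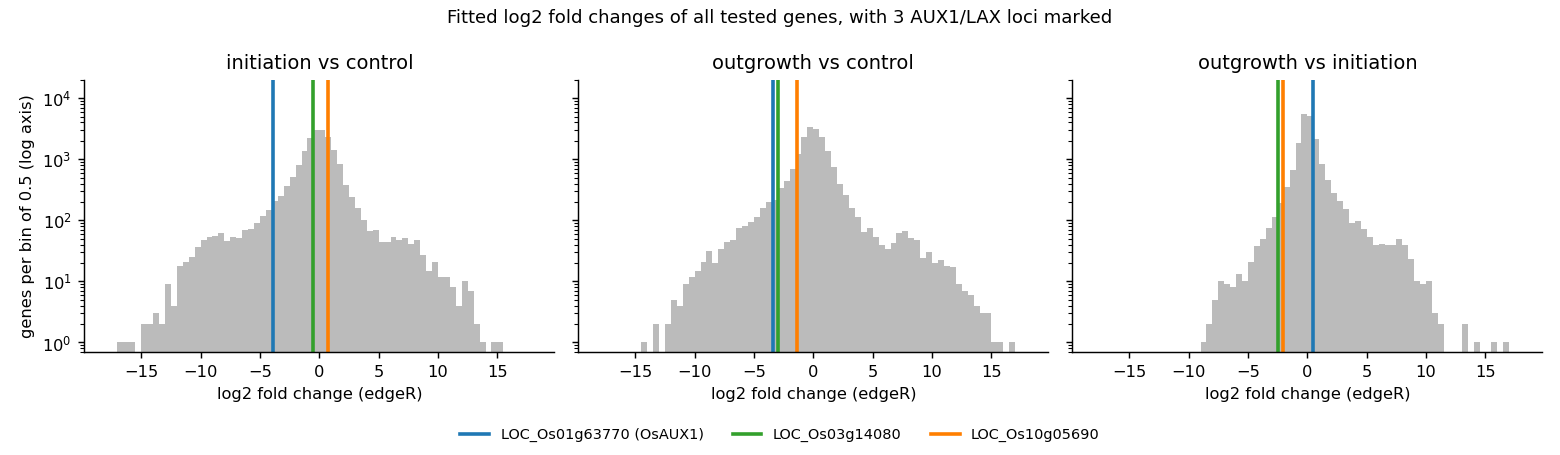
Distribution of fitted log2 fold changes (horizontal axis) over all tested genes in each comparison, with the number of genes per bin on a log axis; vertical lines mark the 3 AUX1/LAX loci with reads in every library. OsAUX1 lies in the low tail against control at both stages, with 5.52% and 5.30% of tested genes below it, and LOC_Os03g14080 and LOC_Os10g05690 lie in the low tail between the stages, with 1.97% and 2.77% below them.

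The division of AUX1/LAX reads among the loci differed between the tissues. OsAUX1 held 22.0% and 23.2% of these reads in the control libraries, 2.55%, 2.21% and 2.76% in initiation replicates 1, 2 and 3, and 12.6% and 14.4% in the outgrowth libraries. Its share at outgrowth was above that at initiation, while its own level did not differ between the stages by the test and LOC_Os03g14080 and LOC_Os10g05690 were lower at outgrowth. Reads of LOC_Os10g05690 per read of LOC_Os03g14080 came to 0.456 and 0.583 in control, 1.06, 1.32 and 1.09 at initiation, and 1.99 and 1.26 at outgrowth. Gene length cancels when this ratio is compared between libraries, and every primordium library lay above both control libraries. No test of the ratio was run. LOC_Os05g37470 and LOC_Os11g06820 together made up the rest, up to 12.1% and 7.59% of the family's reads in a control library.

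**Figure D4:**
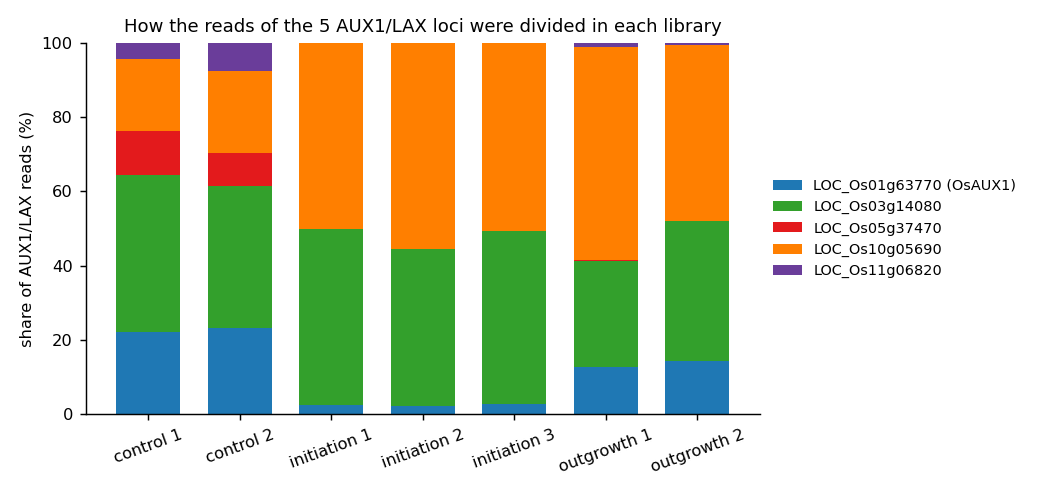
Share of the reads of the 5 AUX1/LAX loci taken by each locus (vertical axis, percent of reads, not scaled for gene length) in each of the 7 libraries (horizontal axis). OsAUX1 takes 22.0% and 23.2% in control and at most 2.76% at initiation, and LOC_Os10g05690 takes at least 47.4% in every primordium library against at most 22.2% in control.

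The other side of auxin transport, and auxin synthesis and perception, were described from lists of loci whose family names rest on rice nomenclature and not on a source used here. Of 12 PIN efflux carrier loci 7 were tested. At initiation 2 of the 7 were called higher than control by edgeR and 0 lower. By DESeq2, and at an unadjusted p below 0.05, 3 were higher and 0 lower. LOC_Os01g51780, called higher there by edgeR, and LOC_Os01g45550 reached the abundance filter through initiation alone. Counts of PIN loci higher at initiation, or lower at outgrowth than at initiation, thus support nothing by themselves. At outgrowth 1 was called higher and 2 lower by edgeR and by DESeq2. At an unadjusted p below 0.05, 1 was higher and 3 lower there. Over all tested genes edgeR called 14.4% higher and 16.1% lower at initiation, and 12.8% higher and 13.6% lower at outgrowth. Between the stages 2 of the 7 PIN loci were called lower by edgeR and 0 higher. By DESeq2, and at an unadjusted p below 0.05, 3 were lower and 1 higher. Over all tested genes edgeR called 1.83% lower and 1.25% higher between the stages. The median log2 fold change of the 7 was 0.17, -0.73 and -2.29 in these comparisons, against -0.05, -0.02 and 0.03 over all tested genes. The pair called lower by edgeR between the stages, LOC_Os11g04190 and LOC_Os12g04000, fell by 2.70 and 2.29 on the log2 scale (edgeR adjusted p = 0.00719 and 0.0102). LOC_Os11g04190 had 60.5 and 80.9 CPM in control, 137.6 to 200.5 CPM at initiation and 26.2 and 27.9 CPM at outgrowth, an order of levels like that of LOC_Os10g05690. LOC_Os12g04000 had 65.2 and 103.7 CPM in control, 83.1 to 93.7 CPM at initiation and 17.9 and 19.5 CPM at outgrowth. These PIN loci lie in the duplicated ends of chromosomes 11 and 12, so reads may have been divided between near copies. LOC_Os06g44970 was the PIN locus called higher at outgrowth than in control, with 36.4 and 35.6 CPM against 9.10 and 2.08 CPM (log2 fold change 2.78, edgeR adjusted p = 0.0260).

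Of 8 YUCCA loci, which encode enzymes of auxin synthesis, 6 were tested. At initiation 2 were called higher and 1 lower than control, at outgrowth 2 higher and 2 lower, and 0 were called between the stages by edgeR. In that comparison 1 was higher and 3 lower at an unadjusted p below 0.05, and DESeq2 called 2 lower. For these loci and the receptors below, the edgeR shares over all tested genes were 14.4% higher and 16.1% lower at initiation. They were 12.8% higher and 13.6% lower at outgrowth, and 1.25% higher and 1.83% lower between the stages. LOC_Os04g03980 had 0.359 and 0.472 CPM in control, 11.3 to 79.6 CPM at initiation and 159.7 and 179.0 CPM at outgrowth. Its order of levels thus ran opposite to that of the AUX1/LAX sum (edgeR adjusted p = 0.00129 for outgrowth against control). LOC_Os04g03980 and LOC_Os01g45760, the loci called higher at both stages, reached the abundance filter through primordium libraries alone. Their calls and this p-value are no support by themselves. LOC_Os01g53200 had the opposite pattern to LOC_Os04g03980, with 157.5 and 188.5 CPM in control, 11.2 to 20.6 CPM at initiation and 8.07 and 9.44 CPM at outgrowth. It was called lower than control at both stages (edgeR adjusted p = 0.000571 and 0.000238). The TIR1/AFB auxin receptor list had 3 of 5 loci called lower at initiation, 2 lower and 1 higher at outgrowth, and 0 called between the stages by edgeR, where 2 were higher at an unadjusted p below 0.05 and DESeq2 called 1 higher. Its summed level was 899 and 975 CPM in control, 644 to 697 CPM at initiation and 862 and 907 CPM at outgrowth, without the fall at outgrowth seen in the AUX1/LAX sum. The AUX1/LAX sum at outgrowth was 83.9 ± 1.54 CPM (SD, n = 2) against 329 ± 61.9 CPM at initiation and 556 ± 66.4 CPM in control.

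Marker lists of other tissues were read beside the AUX1/LAX levels. A list of 8 photosynthesis loci summed to 368 and 1044 CPM in control and to between 4.41 and 6.80 CPM in the primordium libraries. All 6 that were tested were called lower than control at both stages, where 16.1% and 13.6% of all tested genes were called lower. LOC_Os01g41710, LOC_Os03g39610, LOC_Os07g37240 and LOC_Os11g13890 reached the abundance filter only with the control libraries, so this count supports nothing by itself. Between the stages the AUX1/LAX sum was 3.93-fold higher at initiation. Of the 6 photosynthesis loci tested, edgeR called 0 between the stages, where 1.83% of all tested genes were called lower and 1.25% higher. DESeq2 called 0 of them, and 1 was lower at an unadjusted p below 0.05. The 8 loci summed to at most 6.80 CPM in any primordium library, which leaves little room to see a fall between the stages. Of these 8, 6 and 7 had reads in control replicates 1 and 2, and between 4 and 6 in a primordium library. Of the list, LOC_Os12g17600 was at 0 in control replicate 1 and at initiation, LOC_Os11g13890 was at 0 at outgrowth, and LOC_Os01g52240 had no read in any library. Shoot meristem KNOX loci, 4 in the list and all read in every library, summed to 925 and 1062 CPM in control, 382 to 408 CPM at initiation and 245 and 262 CPM at outgrowth. At each stage 3 of 4 were called lower than control, against 16.1% and 13.6% of all tested genes. Between the stages 2 of these 4 were called lower and 0 higher by edgeR. By DESeq2, and at an unadjusted p below 0.05, 3 were lower at outgrowth and 0 higher. Of 3 cellulose synthases of the secondary wall in vascular tissue, 1 was tested and it was not called in any comparison by edgeR or DESeq2, nor at an unadjusted p below 0.05. The list summed to 8.06 and 23.4 CPM in control and 5.03 to 15.6 CPM in primordia, and LOC_Os09g25490 was at 0 in every primordium library. Cell division loci, 7 in the list, summed to 694 and 962 CPM in control, 2451 to 2791 CPM at initiation and 1292 and 1668 CPM at outgrowth. All 7 were called higher than control at initiation and 2 at outgrowth, against 14.4% and 12.8% of all tested genes. Between the stages 2 of these 7 were called lower and 0 higher by edgeR. DESeq2 called 4 lower and 0 higher, and 7 were lower at an unadjusted p below 0.05. The part of these tissue differences in the AUX1/LAX levels was not tested.

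The profile of OsAUX1 over the 6 samples was shared by many loci. Among 14586 other tested genes with a mean of at least 5 CPM, 116 had a Pearson correlation with OsAUX1 above 0.99 on log2(CPM + 1) values. The highest values were 0.9988 for LOC_Os03g29540 and 0.9984 for LOC_Os06g36920, which the files do not pair with a name. LOC_Os03g29540 had 35.1 and 47.3 CPM in control, 1.40 to 1.71 CPM at initiation and 2.72 and 2.82 CPM at outgrowth. Within the family the correlation with OsAUX1 was 0.994 for LOC_Os11g06820 and 0.991 for LOC_Os05g37470, 0.573 for LOC_Os03g14080 and 0.12 for LOC_Os10g05690. LOC_Os03g14080 and LOC_Os10g05690 had a correlation of 0.852 with each other. These values come from 6 samples in 3 groups and describe the grouping of the libraries.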

How the data were processed

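RNA of 7 libraries was isolated with the PicoPure kit and made into libraries with a SMARTer low-input kit, per the labels' protocols, and reads were aligned with STAR, as the submitters' processing notes list. The sources used here name no counting tool, strand setting, genome build or annotation, so reads may be divided between overlapping genes or near copies. The deposited values are headed FPKM but were read as counts, since all are whole numbers of at least 1 and totals differ, and a gene missing from a file was taken as 0 reads. Identifiers did not match the reference table (assembly ASM3414082v1), so no lengths or sequences are given.

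Initiation replicates 1 and 3 were averaged and rounded. edgeR 4.0.16 (R 4.3.3; TMM scaling, glmQLFit, glmQLFTest) was fitted to 6 samples of 3 groups, with 3 residual and 4.72 prior degrees of freedom, on the 18830 genes that reached 1 CPM in 2 or more samples. p-values are two-sided, adjusted by Benjamini-Hochberg over all tested genes, with a threshold of 0.05 for a call, and measure only how far these libraries vary, which may be technical variation. The step was also run on simulated counts of independent samples, drawn with its own fitted dispersion. That run does not show how the fit behaves with an averaged near copy, and no result rests on it. limma 3.58.1 and DESeq2 1.42.0 were alternatives. The members and lists were chosen with earlier results of these data known. Named loci were the members, called loci of the auxin lists (those printed were chosen after their values were seen) and the 2 loci most like OsAUX1. Other loci of the lists were named outside this rule, after their values were seen. These went against the list, were at 0 or reached the abundance filter through some groups only.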

Additional observations from a re-analysis of the deposited data

Results flagged for a closer look

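The effects against control differed between the stages for 2 loci, by the test of outgrowth against initiation itself. LOC_Os03g14080 had a log2 fold change between the stages of -2.436 (edgeR adjusted p = 0.00571), from -0.52 against control at initiation to -2.96 at outgrowth. LOC_Os10g05690 had -2.049 (edgeR adjusted p = 0.0135), from 0.69 against control at initiation to -1.36 at outgrowth. Each was lower in 2 of 2 outgrowth libraries than in every initiation library. The share of all genes separated in this way was not counted. The same libraries gave the test that picked these loci, so the separation adds no support.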

How the results depend on the processing

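OsAUX1 was called lower than control at both stages in all 20 alternatives, with log2 fold changes of -4.07 to -3.26 at initiation and -3.61 to -2.95 at outgrowth, and LOC_Os03g14080 at outgrowth likewise (-3.14 to -2.76). Calls of LOC_Os05g37470 and LOC_Os11g06820 against control are no sign of stability, as both pass the filter through control alone, and without control replicate 1 or 2 they were not tested. With each replicate left out in turn, the number of members called ranged from 1 to 3 at initiation against control, from 3 to 5 at outgrowth against control and from 0 to 2 between the stages. The 1 came without control replicate 1 and the 3 without control replicate 1 or 2. The count between the stages was 0 by edgeR without initiation replicate 2, outgrowth replicate 1 or outgrowth replicate 2, where 3, 3 and 4 members had an unadjusted p below 0.05. Over all genes 15, 0 and 0 were then called, so these counts say nothing particular to the members. It was also 0 by edgeR with no abundance trend of the dispersion, where 0 of all genes were called (2997 at an unadjusted p below 0.05, among them 3 members) and the log2 fold changes of LOC_Os03g14080 and LOC_Os10g05690 were -2.44 and -2.05 (edgeR adjusted p = 0.0787 and 0.0922), and the cause was not tested. With all libraries DESeq2 called 3 members and limma 2.

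With each replicate left out in turn, the log2 fold change between the stages ranged from -2.62 to -2.26 for LOC_Os03g14080 and from -2.20 to -1.74 for LOC_Os10g05690 (-2.31 without the sample of initiation replicates 1 and 3). For LOC_Os10g05690 it ranged from 0.38 to 0.99 at initiation against control and from -1.59 to -1.07 at outgrowth against control. Some members passed the test only in alternatives: LOC_Os03g14080 at initiation against control with library totals alone (-0.61) and with initiation replicates 1 and 3 as separate samples (-0.57), LOC_Os10g05690 at initiation against control with no filter (0.74), with DESeq2 (0.73) and without control replicate 2 (0.99), and LOC_Os11g06820 between the stages with no filter (6.50), a filter of 5 CPM (6.48), DESeq2 (5.93) and initiation replicates 1 and 3 as separate samples (6.50). The values of this last locus depend on the offset, as initiation had 0 reads: limma gave 0.20, 0.79 and 3.03 with pseudocounts of 5, 1 and 0.1. Without the sample of initiation replicates 1 and 3, chosen after seeing the data, 3, 5 and 2 members were called. Over all genes, 0 to 1949 were called between the stages, against 580.

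Replicate numbers did not pair the libraries: deviations of same-numbered samples from their group means had correlations of 0.008, -0.027 and 0.022 between groups. With a replicate block 3, 5 and 2 members were called, and it changed no member's call. Depth limits LOC_Os05g37470 and LOC_Os11g06820, where 3 counts in a primordium library correspond to 0.143 to 0.265 CPM.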
